A study of Mus musculus with 8 samples.

Results

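Endothelial cells line the capillaries that run through every pancreatic islet, and 39 genes that mark them were followed here in the RNA of whole islets. The genes were taken by name from a list of endothelial junction proteins, receptors, transcription factors and secreted proteins. It and the other lists used below were chosen with earlier results of these data known, among them lower endothelial markers. The direction of change is therefore not independent evidence. All 39 were found among the 53012 Ensembl genes of the count table, and 38 had enough counts to be tested. Bulk RNA-seq had been run on islets of 8 mice aged 17 months, each mouse with a library of its own. The 4 βIgf1r mice (CTRL in the sample titles) had the genotype Ins1-CreERT2-/- Igf1r flox/flox and received corn oil. The 4 βIgf1rKD mice (KD) were Ins1-CreERT2+/- Igf1r flox/flox and received tamoxifen at 0.075 mg per g of body weight on 5 consecutive days. Islets of all mice were taken 7 days after the last injection.

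Every mouse carried floxed Igf1r alleles, whereas Cre and tamoxifen were given only to the βIgf1rKD mice, so that the effects of Cre, of tamoxifen and of the deletion cannot be told apart. The genotype names Ins1, while the study's methods speak of a rat insulin promoter for the Cre; in either case the target is the β-cell and not the endothelium. Males and females were mixed in the groups, and the labels do not say which mouse was which. Total counts lay between 21633925 and 42391106 per library. Igf1r itself, counted over the whole gene and so without a separate value for the floxed exon, had a mean of 53.6 CPM (counts scaled to library size; SD 7.21, n = 4) in βIgf1r mice. The mean of the βIgf1rKD mice was 50.7 CPM (SD 4.996, n = 4). On the log2 scale this was -0.08 with a standard error (SE) of 0.11. The groups overlapped.

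Islet capillaries are dense and fenestrated, which lets secreted hormone pass quickly into the blood. β-cells secrete VEGF-A, and the endothelial cells carry its receptors. Endothelial identity is held by transcription factors of the ETS and SOX families, and cell contacts are made by VE-cadherin and PECAM1. Collagenase digestion of the pancreas frees islets with part of their vessels, so that endothelial RNA in a preparation depends on the vessels it kept as well as on expression in each cell. In bulk RNA fewer endothelial cells and less RNA per cell cannot be told apart.

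Of the 38 genes tested 36 had a lower fitted level in βIgf1rKD islets and 2 a higher one. The median log2 fold change was -0.26, against 0.01 over all 15474 genes tested. By edgeR's quasi-likelihood test 10 of the 38 were lower at an unadjusted p under 0.05 and 0 were higher. Over all genes 1.89% were lower and 2.23% higher by the same criterion, and 47.7% had a negative log2 fold change. After Benjamini-Hochberg adjustment over all genes 0 of the 38 passed, where the share among all genes was 0%, and the smallest adjusted p of an endothelial gene was 0.987. DESeq2 gave 11 genes of the 38 lower at an unadjusted p under 0.05 and limma-voom gave 8, beside 1.99% and 2.07% of all genes. At an adjusted p under 0.05 both gave 0 of the 38, and 8 and 1 of all genes.

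**Figure D1:**
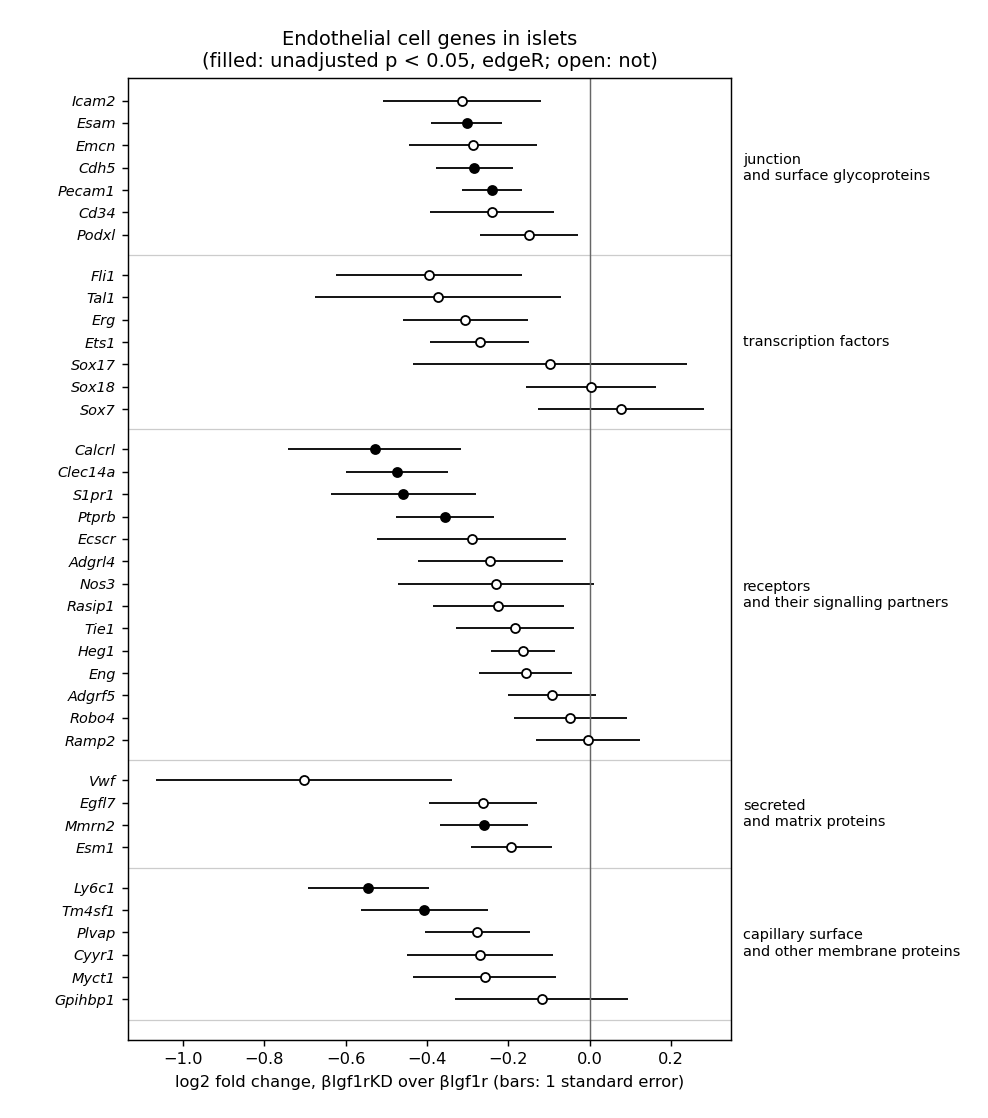
Log2 fold change of the 38 endothelial genes tested (horizontal axis, βIgf1rKD over βIgf1r, bars of 1 SE), grouped by role; filled points had an unadjusted p under 0.05. Of the 38 points 36 lie left of 0, and the 10 filled points are spread over 4 of the 5 roles, with 0 among the transcription factors.

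The summed level of the 39 genes was 979.8, 793.4, 824.3 and 907.7 CPM in the βIgf1r mice M148, M151, M152 and M153. It was 723.9, 721.4, 774.2 and 748.5 CPM in the βIgf1rKD mice M145, M146, M149 and M150. The groups did not overlap, and the βIgf1rKD mean was 0.847 of the βIgf1r mean. These CPM are scaled by TMM factors, which ranged from 0.803 to 1.23. As a plain share of all counts the genes took 0.0742% to 0.121% in βIgf1r and 0.0581% to 0.0848% in βIgf1rKD mice, and on that scale M146 lay above M152. Among the 38 genes tested, the highest mouse was M148 for 16, M153 for 8, M152 for 6 and M151 for 4, all of the βIgf1r group, while M149 of the βIgf1rKD group was highest for the remaining 4. The lowest mouse was M146 for 14 and M145 for 13.

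**Figure D2:**
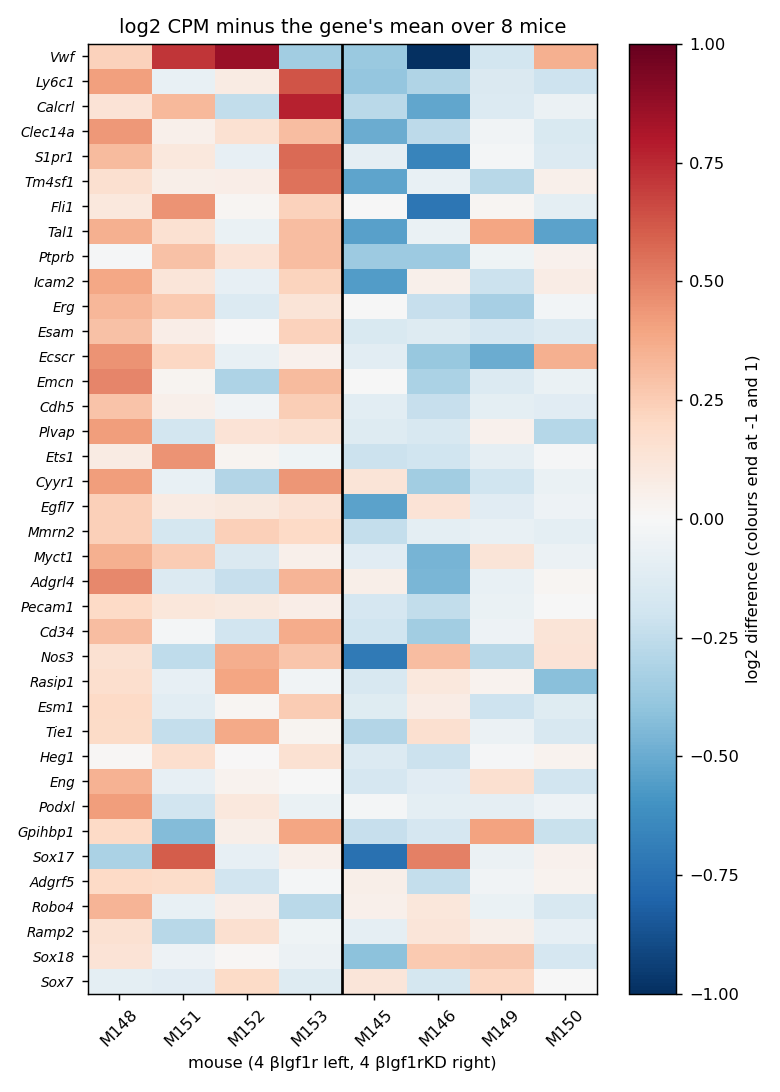
Log2 CPM of each tested endothelial gene (rows, ordered by log2 fold change) in each mouse (columns, 4 βIgf1r then 4 βIgf1rKD), as the difference from the gene's mean over the 8 mice. Red cells gather in M148, in which 35 of the 38 genes are above their mean, and M153, with 28. Blue cells gather in the βIgf1rKD mice, with 5 genes above their mean in M145, 10 in M146, 10 in M149 and 11 in M150.

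Each of the 4 βIgf1rKD mice lay below all 4 βIgf1r mice for 6 of the 38 genes, a pattern found in 1.27% of all genes tested. A further 9 genes had 3 βIgf1rKD mice below the lowest βIgf1r mouse, 9 had 2, 10 had 1 and 4 had 0. Of the 23 genes with a βIgf1r mean of at least 10 CPM 9 were lower at an unadjusted p under 0.05, with a median SE of 0.13, and of the 15 genes below that level 1 was, with a median SE of 0.21. The median log2 fold change was -0.26 in both strata.

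Per kilobase of annotated exon, which allows levels of different genes to be compared, the order in βIgf1r islets began with Plvap at 75.0 ± 12.6 CPM per kilobase (SD, n = 4) and Esm1 at 39.1 ± 4.41 CPM per kilobase (SD, n = 4). Ly6c1, Podxl and Eng followed at 14.6, 12.7 and 12.3 CPM per kilobase and did not differ beyond their spread. Plvap makes the diaphragm of endothelial fenestrae and Esm1 marks VEGF-responsive endothelium. At the other end stood Vwf, Sox17, Tal1 and Cldn5 with 0.248, 0.206, 0.189 and 0.122 CPM per kilobase. Cldn5, a tight junction claudin of barrier-forming endothelium, had 0 to 21 counts per library and did not pass the filter on low counts. With this exception the defining endothelial markers Pecam1, Cdh5, Emcn and Plvap were present in every library.

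Upstream sequence was examined for the 20 of the 39 genes that had an entry in the RefSeq promoter table of GRCm38.p6. The 250 bases before the start were searched on both strands for GGAAGT, a core bound by ETS factors, and for ACAAT, a core bound by SOX factors. GGAAGT or its reverse complement was present in 8 of the 27 windows of these genes, or 29.6%, and in 19.7% of all 32851 windows. ACAAT or its reverse complement was present in 7 of the 27 windows, or 25.9%, and in 27.7% of all windows. Sequences are shown for Ly6c1 and Tm4sf1, which were lower in βIgf1rKD islets, and for Eng and Adgrf5, which hold an ETS core and did not pass the test. The first window of Ly6c1 and the second of Adgrf5 are given, 5′ to 3′ on the gene's strand, with the matches in capitals. For 21 of the 27 windows the bases after the start were found in a transcript of the gene. The first window of Ly6c1 was not among these 21, whereas its second and the other 3 windows shown were. The positions are chr15:75048838-75049087 on the minus strand for Ly6c1, chr3:57301989-57302238 on the minus strand for Tm4sf1, chr2:32646345-32646594 on the plus strand for Eng and chr17:43389216-43389465 on the plus strand for Adgrf5.
Ly6c1: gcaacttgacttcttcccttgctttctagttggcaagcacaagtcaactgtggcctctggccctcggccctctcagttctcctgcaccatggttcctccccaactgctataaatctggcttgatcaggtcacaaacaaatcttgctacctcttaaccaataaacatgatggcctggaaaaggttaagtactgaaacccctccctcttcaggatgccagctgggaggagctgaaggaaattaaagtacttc
Tm4sf1: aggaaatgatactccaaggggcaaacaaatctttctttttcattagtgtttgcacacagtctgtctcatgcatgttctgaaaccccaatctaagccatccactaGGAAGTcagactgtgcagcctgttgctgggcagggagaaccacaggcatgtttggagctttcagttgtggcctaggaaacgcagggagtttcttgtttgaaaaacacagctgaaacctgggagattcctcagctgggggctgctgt
Eng: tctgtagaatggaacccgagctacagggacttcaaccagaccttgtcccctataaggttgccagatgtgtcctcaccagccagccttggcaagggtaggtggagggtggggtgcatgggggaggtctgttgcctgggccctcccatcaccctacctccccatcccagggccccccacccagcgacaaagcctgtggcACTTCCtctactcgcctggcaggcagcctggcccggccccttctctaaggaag
Adgrf5: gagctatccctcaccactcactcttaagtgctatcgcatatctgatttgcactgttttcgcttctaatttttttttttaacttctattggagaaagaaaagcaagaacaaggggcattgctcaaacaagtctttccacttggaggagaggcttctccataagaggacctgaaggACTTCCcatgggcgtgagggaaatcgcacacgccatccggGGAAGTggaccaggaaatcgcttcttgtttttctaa

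Ly6c1 held no match in the window shown and 1 ETS core in its second window. Tm4sf1 held 1 ETS core and Eng 1. Adgrf5 held 2 in the window shown and 0 in its first window. Calcrl and Clec14a, also lower in βIgf1rKD islets, held 2 and 1 SOX cores and 0 ETS cores. Cores were thus present in genes that passed the test and in genes that did not, and a match is only a run of letters in this window.

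Among the 8 junction and surface glycoproteins 7 were tested, all 7 had a negative log2 fold change, and 3 were lower at an unadjusted p under 0.05. Pecam1 (ENSMUSG00000020717, chromosome 11 from 106654217 to 106750628, minus strand of GRCm38) encodes the homophilic adhesion molecule CD31. It was at 43.5, 41.0, 40.6 and 39.7 CPM in the βIgf1r mice and at 33.6, 32.0, 36.3 and 37.7 CPM in the βIgf1rKD mice. Every βIgf1rKD mouse was below every βIgf1r mouse, with a log2 fold change of -0.24 (SE 0.07; edgeR, unadjusted p = 0.00987).

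Cdh5 (chromosome 8 from 104101625 to 104144511, plus strand) encodes VE-cadherin, the adherens junction protein by which endothelial cells hold together. Its levels were 22.8, 19.4, 18.3 and 22.3 CPM in βIgf1r and 17.4, 15.9, 17.5 and 17.3 CPM in βIgf1rKD islets. The groups did not overlap, and the log2 fold change was -0.28 (SE 0.09). Esam, a tight junction adhesion molecule of endothelium and platelets, was at 24.9, 21.2, 20.3 and 23.8 CPM in βIgf1r and at 18.2, 18.5, 17.98 and 18.4 CPM in βIgf1rKD islets, again without overlap. The SD of Esam was 0.237 CPM among the βIgf1rKD and 2.17 CPM among the βIgf1r mice, and the log2 fold change was -0.30 (SE 0.09). Podxl spanned 57.5 to 87.8 CPM in βIgf1r and 61.5 to 65.0 CPM in βIgf1rKD islets, and Emcn 30.3 to 52.5 CPM and 30.1 to 37.3 CPM, so that both overlapped. The sialomucins Podxl, Emcn and Cd34 and the adhesion molecule Icam2 had log2 fold changes of -0.15, -0.29, -0.24 and -0.31 and did not pass the test.

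None of the 7 transcription factors passed the test, with 0 of 7 at an unadjusted p under 0.05 and log2 fold changes between -0.40 and 0.08. The ETS factors Erg, Fli1 and Ets1, which keep endothelial genes active, had log2 fold changes of -0.31, -0.40 and -0.27 with SEs of 0.15, 0.23 and 0.12. Erg was at 5.70, 5.42, 4.09 and 4.93 CPM in βIgf1r and 4.49, 3.82, 3.57 and 4.42 CPM in βIgf1rKD islets, so that M145 and M150 lay above M152. Tal1, shared between endothelium and blood cell precursors, had 10 to 35 counts per library and a log2 fold change of -0.37 (SE 0.30). Log2 fold changes of the SOX factors were nearest to 0 in this role group. Sox18 had a log2 fold change of 0.00 (SE 0.16), Sox7 of 0.08 (SE 0.20) and Sox17 of -0.10 (SE 0.34). Sox17, which specifies arterial endothelium, had 11 to 39 counts and levels of 0.719, 1.42, 0.854 and 0.948 CPM in βIgf1r and 0.515, 1.32, 0.871 and 0.937 CPM in βIgf1rKD islets. At this depth a change of Sox17 of the size seen in Pecam1 was not detectable. An antisense transcript overlaps 804 exonic bases of Sox17, and whether the counting used strand is not given in the sources used here.

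The largest role group was that of the receptors and their signalling partners, of which all 14 had a negative log2 fold change and 4 were lower at an unadjusted p under 0.05. Clec14a, a lectin-like surface protein that binds the matrix protein of the gene Mmrn2, had the smallest p of the 38 genes. It was at 18.2, 13.9, 14.9 and 16.6 CPM in βIgf1r and at 9.50, 11.2, 13.1 and 12.1 CPM in βIgf1rKD islets. The groups did not overlap, and the log2 fold change was -0.47 (SE 0.13; edgeR, unadjusted p = 0.00399). Its partner Mmrn2, of the secreted group, was at 18.4, 13.8, 18.4 and 17.8 CPM in βIgf1r and at 13.2, 14.6, 14.8 and 14.6 CPM in βIgf1rKD islets. One βIgf1r mouse, M151, lay inside the βIgf1rKD range for Mmrn2, whose log2 fold change was -0.26 (SE 0.11; edgeR, unadjusted p = 0.0401). Without M148 that p was 0.103, and Mmrn2 stayed under 0.05 with only 1 of the 8 mice left out.

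Ptprb encodes the phosphatase VE-PTP, which acts on VE-cadherin and on the angiopoietin receptor. It was at 27.0, 33.4, 29.9 and 33.9 CPM in βIgf1r and at 21.2, 21.2, 26.4 and 28.1 CPM in βIgf1rKD islets, where M150 was above M148. The log2 fold change of Ptprb was -0.36 (SE 0.12). S1pr1, the receptor for sphingosine 1-phosphate that steadies vessel walls, was at 12.4, 10.7, 9.36 and 14.7 CPM in βIgf1r and at 9.31, 6.25, 9.75 and 9.002 CPM in βIgf1rKD islets. S1pr1 had a log2 fold change of -0.46 (SE 0.18) and overlapped only through M149, which lay above M152.

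Calcrl forms with Ramp2 the receptor for adrenomedullin, a peptide needed for vessel integrity. Calcrl was at 6.89, 7.89, 5.27 and 10.8 CPM in βIgf1r and at 5.19, 4.36, 5.70 and 6.02 CPM in βIgf1rKD islets, with a log2 fold change of -0.53 (SE 0.21). For Ramp2 the log2 fold change was 0.00 (SE 0.13), with levels of 6.22 to 8.44 CPM among βIgf1r and 7.11 to 8.21 CPM among βIgf1rKD mice. The difference between Calcrl and Ramp2 was not tested, Ramp2 shares 1103 exonic bases with Vps25 on the same strand, and M153 set the highest Calcrl value, without which the log2 fold change was -0.33 (edgeR, unadjusted p = 0.103).

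The other 10 genes of the receptor group did not pass. Their log2 fold changes were -0.29 for Ecscr, -0.24 for Adgrl4, -0.22 for Rasip1, -0.18 for the orphan receptor kinase Tie1, -0.16 for Heg1, -0.16 for the TGF-β co-receptor Eng, -0.09 for Adgrf5 and -0.05 for Robo4. Among these Heg1, at 58.3 to 65.4 CPM in βIgf1r and 50.2 to 59.5 CPM in βIgf1rKD islets, and Eng, at 44.5 to 60.1 CPM and 41.3 to 52.6 CPM, had 3 βIgf1rKD mice below the lowest βIgf1r mouse, as had Ecscr, at 2.53 to 3.67 CPM and 1.87 to 3.43 CPM. Nos3, the endothelial nitric oxide synthase, was at 4.31, 3.24, 4.98 and 4.69 CPM in βIgf1r and at 2.34, 4.82, 3.18 and 4.27 CPM in βIgf1rKD islets. The groups overlapped, and its log2 fold change was -0.23 (SE 0.24). Nos3 overlaps Atg9b by 294 and the antisense gene Gm15587 by 1040 exonic bases on the opposite strand.

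**Figure D3:**
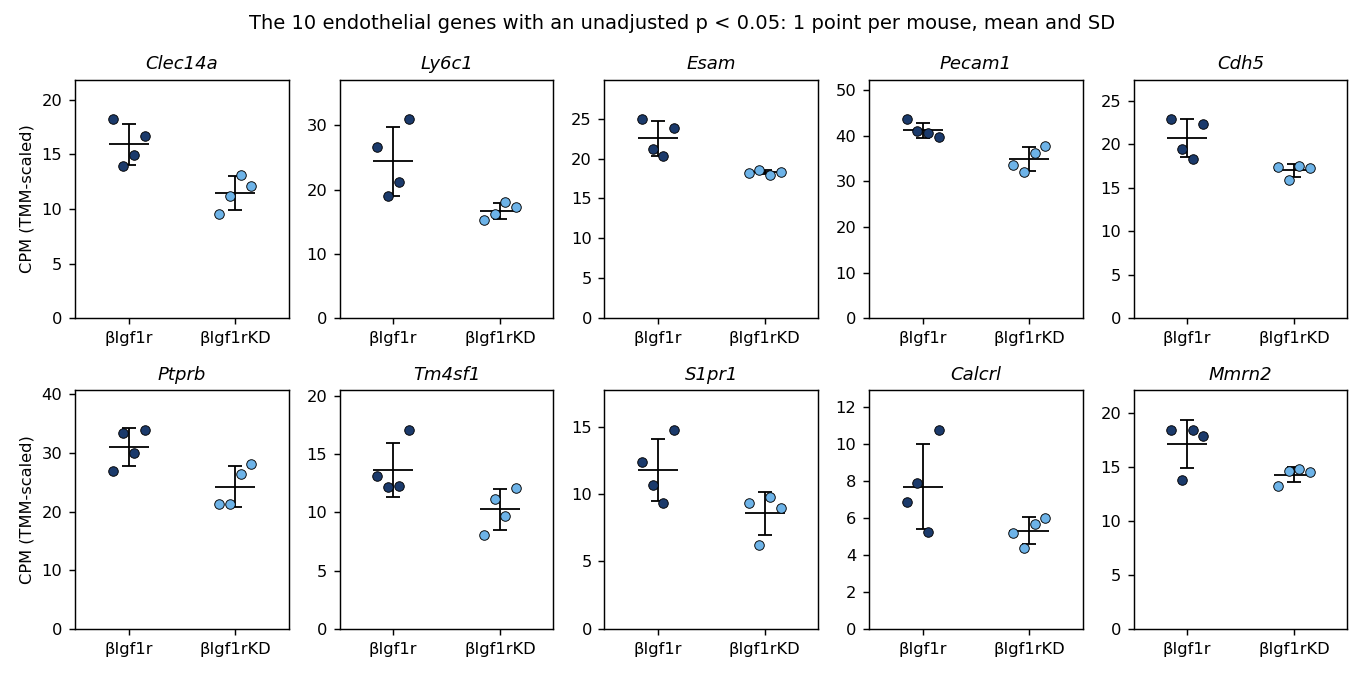
CPM scaled by TMM (vertical axes from 0) of the 10 endothelial genes with an unadjusted p under 0.05, with 1 point per mouse, the mean and the SD of 4 mice. In Clec14a, Ly6c1, Esam, Pecam1, Cdh5 and Tm4sf1 all βIgf1rKD points lie below all βIgf1r points, and in the other 4 genes the groups overlap.

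Of the 4 secreted and matrix proteins Mmrn2, described above, was the 1 that passed. Esm1, a secreted proteoglycan induced by VEGF, was at 87.9, 71.2, 77.6 and 91.2 CPM in βIgf1r and at 70.1, 80.4, 66.3 and 70.2 CPM in βIgf1rKD islets. M146 lay above M151 and M152, and the log2 fold change of Esm1 was -0.19 (SE 0.10). Vwf, the clotting factor that marks larger and venous vessels, had the most negative log2 fold change of all 38 genes at -0.70 and also the widest error, 0.36. It was at 3.43, 4.84, 5.38 and 2.28 CPM in βIgf1r and at 2.25, 1.18, 2.57 and 3.75 CPM in βIgf1rKD islets, so that the groups overlapped. Egfl7, an angiogenic factor whose gene also carries Mir126a, had a log2 fold change of -0.26 (SE 0.13).

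In the group of capillary surface and other membrane proteins 2 of 6 were lower at an unadjusted p under 0.05. Ly6c1, a GPI-anchored protein of capillary endothelium and of some leukocytes, was at 26.6, 19.0, 21.2 and 30.9 CPM in βIgf1r and at 15.3, 16.2, 18.1 and 17.3 CPM in βIgf1rKD islets. The groups did not overlap, and the log2 fold change was -0.54 (SE 0.15; edgeR, unadjusted p = 0.00473). Ly6c1 is uncertain in so far as its near copy Ly6c2, which monocytes express, could share reads with it. Ly6c2 had 6 to 45 counts per library and at most 1.64 CPM.

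Tm4sf1, a tetraspanin-like protein of endothelial projections, was at 13.1, 12.2, 12.2 and 17.1 CPM in βIgf1r and at 8.09, 11.1, 9.66 and 12.1 CPM in βIgf1rKD islets. M150 and M151 were nearly level, and the log2 fold change of Tm4sf1 was -0.41 (SE 0.16; edgeR, unadjusted p = 0.0269). Plvap, the most abundant of the endothelial genes, was at 179.7, 118.5, 147.6 and 150.1 CPM in βIgf1r and at 123.0, 120.6, 138.4 and 110.1 CPM in βIgf1rKD islets. M151 lay within the βIgf1rKD range, and the log2 fold change of Plvap was -0.28 (SE 0.13; edgeR, unadjusted p = 0.0587). Gpihbp1, which holds lipoprotein lipase on the capillary wall, had a log2 fold change of -0.12 (SE 0.21), and Cyyr1 and Myct1 of -0.27 and -0.26, without passing the test.

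To read the endothelial genes against each other, counts were also scaled to the total of the 39 genes in each library. On this scale 22 of the 38 had a negative log2 fold change, their median was -0.02, and 1 was lower at an unadjusted p under 0.05. Over all genes this scaling gave a median of 0.24, with 0.194% lower and 3589 genes higher at an unadjusted p under 0.05. The endothelial gene was Ly6c1, with a log2 fold change of -0.30 (SE 0.12; edgeR, unadjusted p = 0.0354). Clec14a had -0.23 (SE 0.11), and Pecam1 and Cdh5 had -0.01 and -0.04. The genes at the other end were Sox7, Sox18, Ramp2 and Robo4, with log2 fold changes of 0.30, 0.24, 0.24 and 0.20 relative to the endothelial total and SEs of 0.23, 0.16, 0.13 and 0.15.

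Genes of the same cells that are not in the list were compared in the same fit. In a further list of 26 vascular endothelial genes 23 had a negative and 3 a positive log2 fold change, with a median of -0.21, and 2 were lower at an unadjusted p under 0.05. These were Slco2a1, a prostaglandin transporter, with a log2 fold change of -0.51 (SE 0.12), and Tspan18, with -0.38 (SE 0.16), whereas Cd93 had 0.01 (SE 0.13). The 14 genes of VEGF and angiopoietin ligands and receptors split into 7 with a negative and 7 with a positive log2 fold change, with a median of 0.02, 3 lower and 1 higher at an unadjusted p under 0.05. The 3 lower ones, the receptors Kdr, Flt1 and Tek, had log2 fold changes of -0.38, -0.34 and -0.38, with unadjusted p-values by edgeR of 0.00134, 0.00323 and 0.0120. The receptors Flt4, Nrp1 and Nrp2 had 0.07, -0.07 and -0.10 and did not pass. The ligand Vegfa, made mainly by the islet cells, had a log2 fold change of 0.03 (SE 0.10), and Vegfb was higher at an unadjusted p of 0.0496 by edgeR, with 0.21 (SE 0.09).

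Arterial, venous and lymphatic genes were each set in a short list. Of 9 arterial genes tested 6 had a negative log2 fold change and 0 passed, with a median of -0.08. Of 7 venous and activation genes 4 had a negative log2 fold change, with a median of -0.03, and 1 was lower at an unadjusted p under 0.05. That gene was Ackr1, the chemokine-binding receptor of venules, with 0.427 to 0.909 CPM among βIgf1r and 0.0357 to 0.281 CPM among βIgf1rKD mice. Its log2 fold change was -1.65 (SE 0.49), at levels so low that few counts separate the groups. Of 6 lymphatic genes 3 were tested, Prox1, Reln and Lyve1, of which 2 had a negative log2 fold change and 0 passed. Pdpn, Ccl21a and Mmrn1, with βIgf1r means of 0.167, 0.384 and 0.0178 CPM, were not tested. Whether lymphatic vessels were the source of the tested genes was not examined.

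**Figure D4:**
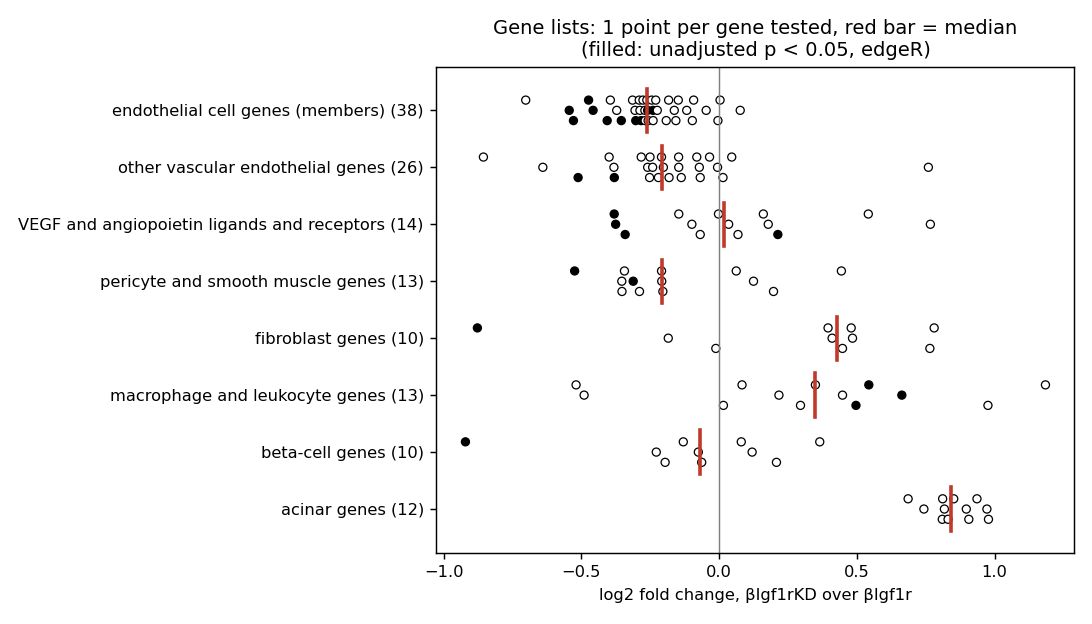
Log2 fold change (horizontal axis, βIgf1rKD over βIgf1r) of each tested gene in 8 lists (vertical axis, number tested in brackets), with the median of each list as a red bar and filled points for an unadjusted p under 0.05. The medians of the endothelial lists are -0.26 and -0.21, that of the pericyte and smooth muscle list is -0.21, and those of the leukocyte and acinar lists are 0.35 and 0.84.

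Markers of other cells in the preparations were set beside the endothelial genes. Pericytes wrap the capillaries, and of 13 pericyte and smooth muscle genes tested 9 had a negative log2 fold change, with a median of -0.21. Rgs5 and Kcnj8, which mark pericytes, were lower at an unadjusted p under 0.05, with log2 fold changes of -0.31 (SE 0.12) and -0.52 (SE 0.22). The summed level of the pericyte list lay between 255.6 and 283.3 CPM in βIgf1r and between 232.1 and 274.7 CPM in βIgf1rKD islets, so the groups overlapped.

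Some of the endothelial genes are also expressed by blood or immune cells, among them Esam, Fli1, Ets1, Tal1, Icam2, Cd34, S1pr1 and Ly6c1. This enumeration is not complete. Of the 13 macrophage and leukocyte genes tested 11 had a positive log2 fold change. Tyrobp, C1qb and C1qc, 3 of them, were higher at an unadjusted p under 0.05. Each was highest in the βIgf1rKD mouse M149, at 8.66, 35.1 and 30.3 CPM. In the other βIgf1rKD mice C1qb was at 17.8 to 19.9 CPM and C1qc at 12.5 to 14.5 CPM. The βIgf1r mice had 13.7 to 18.1 and 9.20 to 13.1 CPM. C1qa had a log2 fold change of 0.02 (SE 0.18). The 2 genes of this list with a negative log2 fold change were Ptprc and Cd79a, with -0.49 (SE 0.53) and -0.52 (SE 0.44). Both were highest in the βIgf1r mouse M151, at 19.9 and 18.9 CPM. Lyz2 and Cd68, both positive, were highest in the βIgf1rKD mouse M149, at 91.1 and 11.4 CPM. The whole leukocyte list summed to between 280.8 and 447.5 CPM in βIgf1r and between 335.6 and 508.8 CPM in βIgf1rKD islets. The T-cell marker Cd3e did not pass the filter on low counts and had group means of 0.248 and 0.253 CPM. Its βIgf1r mean was set by M151, at 0.837 CPM against 0.0266 to 0.0948 CPM in the other βIgf1r mice. All 12 acinar genes tested had a positive log2 fold change, with a median of 0.84, and 0 passed. Acinar enzyme genes summed to 19380 to 196700 CPM in βIgf1r and to 42810 to 238300 CPM in βIgf1rKD islets. The 10 fibroblast genes had a median of 0.43, with 7 positive and 3 negative log2 fold changes. Dpt, a negative one, was lower at an unadjusted p of 0.0497 by edgeR, with -0.88 (SE 0.39). Fibroblast sums were 77.3 to 101.4 CPM in βIgf1r islets. In βIgf1rKD islets they were 54.5, 21.1, 275.2 and 123.6 CPM in M145, M146, M149 and M150. The duct list had 6 of 7 tested genes with a positive log2 fold change and a median of 0.41, with 0 passing.

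The lists of Schwann cells, of alpha, delta and PP cells and of erythroid cells and platelets had more negative than positive log2 fold changes. Of the 8 Schwann cell genes 7 were negative, with a median of -0.37, and 0 passed. Their sum lay between 18.8 and 20.4 CPM in βIgf1r and between 12.8 and 23.2 CPM in βIgf1rKD islets. Of the 8 genes of alpha, delta and PP cells 7 were negative, with a median of -0.23, and 0 passed. Of the 7 erythroid and platelet genes tested 5 were negative, with a median of -0.08, and 0 passed. The 5 were all erythroid genes. The 2 positive ones were the platelet genes Pf4 and Itga2b, with 1.19 (SE 0.73) and 1.05 (SE 0.52). Both were highest in M149, at 2.18 and 3.18 CPM.

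The 10 β-cell genes had a median of -0.07, with 6 negative and 1 lower at an unadjusted p under 0.05. That gene was Ins1, which encodes 1 of the insulins of the mouse, with 31090 to 50370 CPM among βIgf1r and 19120 to 28540 CPM among βIgf1rKD mice. Its groups did not overlap, and its log2 fold change was -0.92 (SE 0.33). The ratio of the summed β-cell levels, βIgf1rKD over βIgf1r, was 0.845. That sum lay between 146700 and 203500 CPM in βIgf1r and between 127700 and 188200 CPM in βIgf1rKD islets, so the groups overlapped. Most of it came from Ins2, Ins1 and Iapp, with βIgf1r means of 115600, 41090 and 17440 CPM.

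With the acinar level as a covariate 8 of the 38 endothelial genes were lower at an unadjusted p under 0.05, beside 1.15% of all genes, and their median log2 fold change was -0.22. With Xist expression as a covariate for the unmarked sexes the number was also 8, beside 2.68% of all genes, and the median was -0.23. Of the 10 genes that passed in the fit without covariates, 8 passed with the acinar and 6 with the Xist covariate. The part of leukocytes, pericytes, fibroblasts, Schwann cells and endocrine cells in the endothelial result was not tested.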

How the data were processed

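Islet mRNA of 4 βIgf1r and 4 βIgf1rKD mice was sequenced from stranded libraries. The authors deposited estimated counts per Ensembl gene, unscaled; the submitters' processing notes name fastp, kallisto and GRCm38, and the annotation release is not given in the sources used here. All 8 columns were matched to mice by number, and mouse numbers are not shared between groups. Symbols were found for 51906 of 53012 genes. Exon lengths and positions are those of GENCODE M21 on GRCm38. Kallisto divides reads among similar transcripts, so genes with near copies or overlapping exons are uncertain.

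Estimated counts were rounded to whole numbers. The edgeR 4.0.16 filter (at least 10 counts, scaled to library size, in at least 4 mice, total at least 15) kept 15474 genes. Groups were compared with TMM factors and edgeR's quasi-likelihood test in R 4.3.3, adjusted by Benjamini-Hochberg over all genes. Each SE is the size of the log2 fold change divided by the square root of F. Log2 CPM used a prior count of 2. An unadjusted p under 0.05, the study's general threshold, and an adjusted p under 0.05 are both counted. The p-values set the difference between groups against the spread between mice, which is estimated with information shared among genes. Alternatives were RLE factors, scaling without the 12 acinar genes or to the members' total, other filters, DESeq2 1.42.0, limma-voom (limma 3.58.1), the Xist and acinar covariates and each mouse left out. The fit was tested on simulated counts.

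The endothelial genes and all other lists were chosen with earlier results of these data known, among them lower endothelial markers, so the direction is not independent evidence. Values in every mouse are given for genes with an unadjusted p under 0.05, for those whose groups do not overlap, and for Pecam1, Cdh5, Plvap, Esm1, Vwf, Erg, Sox17 and Nos3. Promoter windows are from RefSeq (GRCm38.p6), and the 250 bases before the start were searched. The genes Ecscr, Ptprb, Ramp2, Mmrn2, Ets1, Sox7, Icam2, Pecam1, Esam, Sox18, Plvap, Sox17, Nos3, Cdh5, Fli1, Podxl, Vwf, S1pr1 and Gpihbp1 had no entry. Plots were drawn with matplotlib 3.10.9.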

Additional observations from a re-analysis of the deposited data

Results flagged for a closer look

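In 6 of 78 sets of 4 mice (the 38 endothelial genes and their summed level, in each group) 1 value stood apart by Dixon's criterion; about 3.9 such sets, 1 in 20, would arise by chance. In βIgf1rKD islets M146 was lowest for Cdh5, at a log2 CPM of 4.00 against 4.12 to 4.13, and for Fli1, at 0.28 against 0.90 to 1.021. M145 was lowest for Mmrn2, at 3.73 against 3.87 to 3.89, and M149 was highest for Gpihbp1, at 2.95 against 2.32 to 2.38. In βIgf1r islets M151 was lowest for Mmrn2, at 3.79 against 4.16 to 4.20, and M152 was highest for Sox7, at 0.80 against 0.48 to 0.51. Without M146 the log2 fold change of Cdh5 stayed under an unadjusted p of 0.05 by edgeR. The causes were not tested.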

How the results depend on the processing

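Across the alternatives other than left-out mice, the endothelial genes lower at an unadjusted p under 0.05 numbered 8 to 11, beside 1.15% to 2.68% of all genes, except with scaling to the members' total, which by its construction reads each gene against the others: there 1 was lower, beside 0.194% of all genes, 22 of the 38 had a negative log2 fold change against 36, the median log2 fold change was -0.022, and, among the 16 genes given by mouse, those of Sox17, Esm1 and Nos3 turned to 0.116, 0.052 and 0.0090. With a mouse left out they numbered 7 to 14, beside 1.15% to 2.98% of all genes, with medians between -0.32 and -0.21. The number of endothelial genes at an adjusted p under 0.05 was 0 in each of these fits. Library sizes without TMM factors, added after the data were examined, gave 15 genes, beside 3.11% of all genes, and a median of -0.48, beside a median of -0.19 over all genes. Pecam1, Cdh5, Esam, Ptprb, Clec14a and Ly6c1 stayed under an unadjusted p of 0.05 with each mouse left out; Tm4sf1, S1pr1, Calcrl and Mmrn2 did so in 5, 5, 4 and 1 of 8 cases. Sox17 turned to 0.058 with the acinar covariate, and ranged from -0.33 to 0.13 with a mouse left out. The causes were not tested. Depth limits Sox17, Tal1 and Cldn5.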
